A study of Mus musculus with 6 samples.

Results

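The 9 genes described here carry glucose into the cell and through glycolysis to lactate: Slc2a1, Hk1, Hk2, Pfkfb3, Pfkl, Pfkp, Aldoa, Pkm and Ldha. They were taken by symbol from the 32285 genes listed in single-cell count matrices of the mouse ileal crypt epithelium. The 9 were chosen with their levels by cell class, cell depth and group known. Hk2 and Pfkfb3, which lead the set, are treated as selected on their fold change between the groups of mice, and their values are a description. The other 7 genes were tested between groups, and their p-values are not free of that choice either. Crypts of the ileum were dissociated, EpCAM-positive cells were sorted and droplet libraries were made in which each captured transcript carries a unique molecular identifier (UMI). Of the 6 libraries, 3 came from Fpr2f/f mice, labelled WT, whose Fpr2 gene is floxed and undeleted, and 3 came from Fpr2VKO mice, which have the same floxed gene and Cre recombinase under the Villin promoter. That promoter is active along the intestinal epithelium, so the deletion is not limited to 1 epithelial cell type. The floxed mice were on the C57BL/6J background, the mice were young adults matched for sex and age, and the labels name no treatment. FPR2 is a G protein-coupled receptor for formyl peptides.

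Glycolysis splits glucose into pyruvate in the cytosol. GLUT1 (Slc2a1) lets glucose in, hexokinases (Hk1, Hk2) trap it by phosphorylation, and phosphofructokinase (Pfkl and Pfkp subunits) commits it to the pathway, under the control of fructose 2,6-bisphosphate, which PFKFB3 makes. Aldolase A (Aldoa) and pyruvate kinase M (Pkm) act further down, and lactate dehydrogenase A (Ldha) turns pyruvate into lactate. Several of these genes are known targets of the hypoxia-inducible factors, which bind the letters ACGTG, and of MYC and the carbohydrate response factors, which bind E-boxes such as CACGTG.

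For 4 genes that the results turn on, the 250 bases before the start sites are shown to let a reader see these letters. Capitals mark ACGTG or its reverse complement CACGT, and CACGTG holds both. The sequences are RefSeq's on GRCm38.p6, all 9 genes matched by symbol, and each is written 5′ to 3′ on the strand of the gene.
Hk2, chr6:82774455-82774704, minus strand: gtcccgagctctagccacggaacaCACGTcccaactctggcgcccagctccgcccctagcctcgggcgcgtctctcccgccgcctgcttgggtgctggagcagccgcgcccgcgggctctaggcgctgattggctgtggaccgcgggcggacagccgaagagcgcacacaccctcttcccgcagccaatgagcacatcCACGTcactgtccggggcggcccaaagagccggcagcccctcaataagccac
Pfkfb3 upstream start, chr2:11553930-11554179, minus strand: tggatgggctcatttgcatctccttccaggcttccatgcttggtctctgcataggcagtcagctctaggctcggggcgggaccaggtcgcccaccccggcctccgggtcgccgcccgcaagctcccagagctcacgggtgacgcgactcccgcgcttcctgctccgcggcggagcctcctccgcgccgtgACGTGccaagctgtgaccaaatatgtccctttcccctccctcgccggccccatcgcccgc
Pfkfb3 downstream start, chr2:11502091-11502340, minus strand: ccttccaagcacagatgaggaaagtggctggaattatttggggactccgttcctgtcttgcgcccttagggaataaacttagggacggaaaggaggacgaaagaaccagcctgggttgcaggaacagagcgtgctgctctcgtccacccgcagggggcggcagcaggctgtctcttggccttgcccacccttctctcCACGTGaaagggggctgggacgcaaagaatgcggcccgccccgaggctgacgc
Slc2a1, chr4:119108495-119108744, plus strand: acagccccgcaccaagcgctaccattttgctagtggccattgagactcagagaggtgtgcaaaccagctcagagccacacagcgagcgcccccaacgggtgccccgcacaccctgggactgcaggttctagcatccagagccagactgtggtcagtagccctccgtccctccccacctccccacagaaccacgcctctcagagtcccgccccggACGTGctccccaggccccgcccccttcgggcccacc
Ldha upstream start, chr7:46845554-46845803, plus strand: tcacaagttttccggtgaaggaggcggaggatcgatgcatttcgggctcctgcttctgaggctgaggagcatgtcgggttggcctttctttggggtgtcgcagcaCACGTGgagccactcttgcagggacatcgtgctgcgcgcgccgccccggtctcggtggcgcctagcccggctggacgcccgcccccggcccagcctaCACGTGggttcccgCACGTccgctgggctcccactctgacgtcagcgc
The Hk2 window held the letters in 2 places, that of Slc2a1 in 1, and each Pfkfb3 window in 1, which at the downstream start was CACGTG. The Ldha window held 3, of which 2 were CACGTG. Over all 15 listed starts of the 9 genes, 8 held ACGTG on either strand, and 6 of 9 genes had such a start, against 18.5% of 27025 genes. CACGTG stood in windows of 2 of the 9 genes and of 6.86% of all genes. Windows of Hk1, Pfkl and Pfkp held neither. A match is a run of letters, not a measured binding site.

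On GRCm38, the build of the files, Slc2a1 lies at chr4:119108711-119137983, plus strand, Hk1 at chr10:62268855-62379908, minus strand, Hk2 at chr6:82725025-82774454, minus strand, and Pfkfb3 at chr2:11471433-11554077, minus strand. Pfkl lies at chr10:77986947-78010083, minus strand, Pfkp at chr13:6579768-6648777, minus strand, Aldoa at chr7:126795234-126800751, minus strand, Pkm at chr9:59656368-59679375, plus strand, and Ldha at chr7:46841475-46855627, plus strand. A second row named Aldoa held 46 UMIs against 39194 and was not used. All but Pfkl, Pkm and Ldha overlap a counted gene on the other strand, such as Pitrm1 for Pfkp, and how the counting used strand is not given in the sources used here.

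The libraries held 90142126 to 189516114 UMIs over all barcodes. Cells were barcodes with at least 1000 UMIs, at least 500 genes and at most 20% mitochondrial UMIs. Of the barcodes that met the other limits, the mitochondrial limit removed 78.0%, 65.7% and 70.9% under Fpr2f/f replicates 1 to 3. Under Fpr2VKO replicates 1 to 3 it removed 90.1%, 76.1% and 85.6%. This left 17104 cells, 16811 of them not immune-like and called epithelial here. Fpr2 had 0 UMIs in the epithelial cells of all 6 libraries, which allows at most 0.0577 to 0.114 CPM (UMIs per 1000000 UMIs of the same cells, 3 UMIs, counting error only), so Fpr2 itself could not check the labels. Epcam was at 1174 to 1358 CPM, and 6 markers of other cells of the gut wall summed to 3.55 to 6.25 CPM. The 8 immune markers summed to 345 to 483 CPM in Fpr2f/f and 199 to 982 CPM in Fpr2VKO. Cells of at least 10000 UMIs were 29.1%, 21.2% and 27.4% of the epithelium under Fpr2f/f replicates 1 to 3, all below the 36.9%, 45.01% and 43.2% of the 3 Fpr2VKO replicates. Replicates 1 and 2 of both groups shared 8 to 23 cell barcodes in each pair, replicate 3 of both groups shared 9, and pairs across these 2 sets shared 0 to 4. The study used 3 mice per group but the labels do not tie libraries to mice, so p-values measure the spread between libraries.

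Cells were clustered without the glycolysis genes, and 18 clusters were named from epithelial markers as stem-like, transit-amplifying-like (TA-like), enterocyte-like, Paneth-like, goblet-like, enteroendocrine-like or tuft-like. The 7 clusters that took neither an epithelial nor the immune name are described together as unnamed cells. The stem-like class is the single cluster 6 (948 cells), whose leading genes hold the stem markers Gkn3 and Olfm4 among DNA replication genes such as Mcm4, Uhrf1 and Mcm6. When libraries were not aligned, the stem-like cluster held 304 cells and the cluster led by Mcm4 and Uhrf1, of 1060 cells, took no name. TA-like cluster 22 (96 cells) was led by Atoh1, Gfi1 and Dll1, genes of secretory progenitors, with no TA marker among its leading 10. The same held for TA-like clusters 4 (1124 cells, led by histone genes) and 11 (811 cells), of 4234 TA-like cells in all. The unnamed cells include cluster 24, 41 cells led by the immunoglobulin genes Igha, Jchain and Ighm, which is not an epithelial pattern and which stayed among the cells called epithelial. It gave 0.342 to 2.65% of the UMIs of unnamed cells in a library. Without it the log2 fold changes of Hk2 and Pfkfb3 between groups, described further on, were -0.68 and -1.04 in all epithelial cells and -0.86 and -1.36 in unnamed cells. Over cells of all depths, every one of the 9 genes was lowest in Paneth-like cells, the antimicrobial cells of the crypt base, among these 8 classes. Genes outside the 9 were also lowest there, such as Gpi1 (14.6 CPM), Tpi1 (28.5 CPM) and Mpc1 (29.4 CPM), though not Pck1. The low level was thus not particular to the 9. In cells under 10000 UMIs, Paneth-like cells were not the lowest class for Hk1, Hk2, Pfkfb3, Ldha and Slc2a1. From the lowest to the highest class the level differed 7.93-fold for Slc2a1 and up to 27.5-fold for Pfkfb3. Class levels are means ± SD over 6 libraries, given as a description. Each counts transcripts by UMI, so no gene length enters, but capture may differ between genes.

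Slc2a1, the gene for the basal glucose transporter, was highest in the mucus-secreting goblet-like cells, at 58.1 ± 9.47 CPM. The next named class, the chemosensory tuft-like cells, had 24.8 ± 14.4 CPM, and its libraries, from 7.77 to 50.7 CPM, overlapped the goblet-like range of 46.3 to 68.98 CPM. TA-like, stem-like, enteroendocrine-like and enterocyte-like cells followed at 15.8 ± 0.989, 13.98 ± 1.57, 11.98 ± 2.43 and 11.8 ± 1.15 CPM, with neighbours overlapping, and Paneth-like cells had 7.32 ± 2.12 CPM. Of the UMIs of 4 facilitative hexose transporter genes, Slc2a1 made up 87.7% ± 2.51 in goblet-like and 21.6% ± 8.02 in enterocyte-like cells, where the enterocyte transporters Slc2a2 and Slc2a5 made up 35.97% ± 11.5 and 41.1% ± 5.36.

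Hk2, the inducible hexokinase, was highest in hormone-secreting and mucus-secreting cells. It stood at 214 ± 30.3 CPM in enteroendocrine-like and 189 ± 36.01 CPM in goblet-like cells, whose libraries overlapped. Unnamed cells had 102 ± 33.6 CPM and reached the goblet-like range. TA-like cells had 68.1 ± 17.2, stem-like cells 45.2 ± 7.91, tuft-like cells 42.004 ± 23.1, enterocyte-like cells 38.6 ± 16.4 and Paneth-like cells 18.9 ± 7.72 CPM. Each of these 5 overlapped the next in the order, and all lay below the goblet-like libraries. Paneth cells are secretory too, yet over cells of all depths Paneth-like cells were at the bottom for Hk2. The order of the lower classes changed with depth. In cells under 10000 UMIs, TA-like and enterocyte-like cells had means of 122 and 115 CPM. Paneth-like, stem-like and tuft-like cells followed there at 59.3, 55.2 and 43.8 CPM, the stem-like mean from as few as 10 cells in a library. In cells of at least 10000 UMIs, enterocyte-like cells (26.4 CPM) stayed below stem-like cells (44.8 CPM).

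Hk1, the constitutive hexokinase, was low in most of the epithelium, at 2.18 ± 0.199 CPM in stem-like, 2.804 ± 0.822 CPM in TA-like and 10.8 ± 2.47 CPM in enterocyte-like cells. Tuft-like cells led with 40.96 ± 32.7 CPM, but their libraries spread from 8.16 to 97.1 CPM. The Hk2 mean was above the Hk1 mean in every epithelial class, in tuft-like cells by less than their spread, while the immune-like cells had 48.97 ± 19.1 CPM of Hk1 and 29.7 ± 26.8 CPM of Hk2.

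Which hexokinase dominated depended on the class. Of the UMIs of 4 hexokinase genes, Hk1, Hk2, Hk3 and Hkdc1, Hk2 gave 87.8% ± 2.13 in goblet-like, 74.2% ± 4.905 in stem-like, 71.2% ± 4.49 in TA-like and 18.003% ± 6.46 in enterocyte-like cells. Enterocyte-like cells drew 76.8% ± 5.36 from Hkdc1, a gene with hexokinase domains. In enterocyte-like cells the Hk2 share averaged 23.1% ± 3.33 over 3 Fpr2f/f and 12.9% ± 3.75 over 3 Fpr2VKO libraries (SD), and the Hkdc1 share was 72.7% ± 2.83 and 80.8% ± 3.71. These shares depend on each other, and the level of Hkdc1 itself was not higher in Fpr2VKO. It was 164 ± 11.98 and 157 ± 5.22 CPM in enterocyte-like cells, with the groups overlapping. In all epithelial cells it was 63.8 ± 8.74 and 48.95 ± 2.43 CPM, lower in Fpr2VKO without overlap, as for 10.4% of genes (edgeR adjusted p = 0.517). It also lay lower without overlap in stem-like (5.71% of genes, edgeR adjusted p = 0.602) and unnamed cells (5.22%, edgeR adjusted p = 0.383). In TA-like, Paneth-like and goblet-like cells the groups overlapped.

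**Figure D1:**
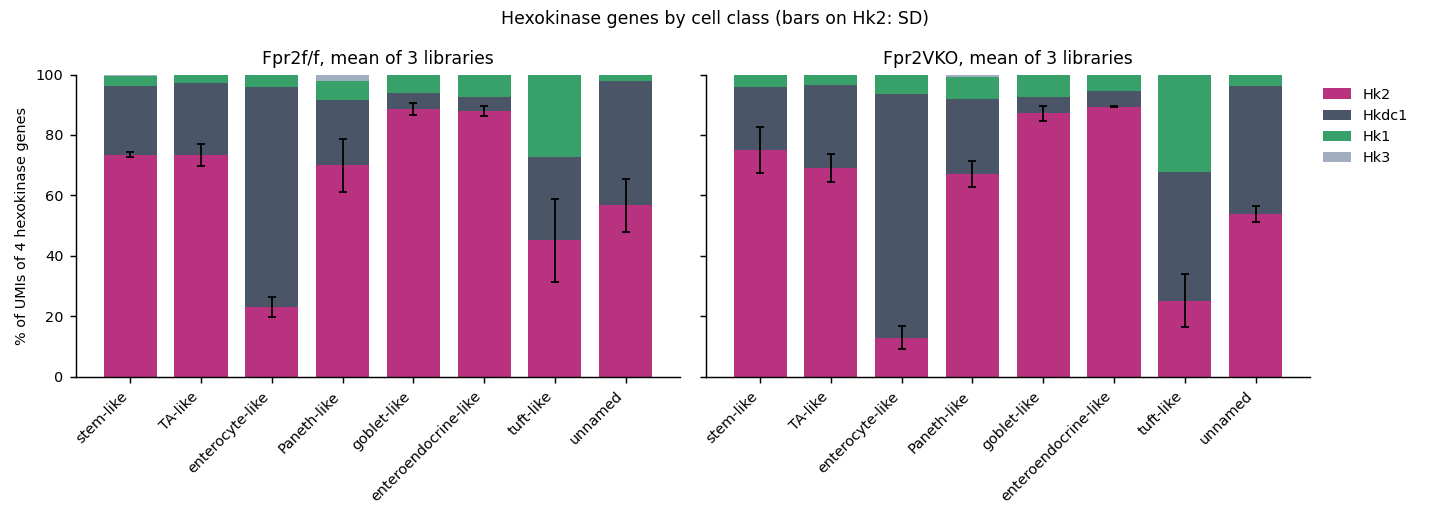
Percent of the UMIs of Hk1, Hk2, Hk3 and Hkdc1 from each of these genes (y axis, stacked bars, mean of 3 libraries per group; black bars, SD of Hk2) in each epithelial class, Fpr2f/f and Fpr2VKO side by side. Hk2 fills most of the goblet-like bars (88.5% and 87.1%) and a small part of the enterocyte-like bars (23.1% and 12.9%), where Hkdc1 fills the most.

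Pfkfb3, whose enzyme makes the activator of phosphofructokinase, was highest in tuft-like cells, at 72.4 ± 21.7 CPM. Enteroendocrine-like cells came next among the named classes at 24.9 ± 10.4 CPM and overlapped them. Unnamed cells, with 23.2 ± 14.5 CPM, overlapped both. Goblet-like and enterocyte-like cells had 12.7 ± 3.62 and 10.4 ± 3.05 CPM, and TA-like, stem-like and Paneth-like cells had 4.27 ± 2.43, 3.07 ± 1.86 and 2.63 ± 1.605 CPM. Tuft-like cells were the shallowest class, with a median of 2631 UMIs, and held 10 to 32 Pfkfb3 UMIs a library. In cells under 10000 UMIs they still led, at a mean of 95.3 CPM. Unnamed, goblet-like and enterocyte-like cells followed there at 44.6, 17.6 and 17.3 CPM. The enteroendocrine-like mean there, 12.3 CPM, rested on few UMIs. Pfkfb3 was the main gene of its family only in tuft-like cells among the named classes, with 56.1% ± 9.53 of the UMIs of 4 Pfkfb genes. In stem-like cells it gave 7.91% ± 4.54 and Pfkfb2, another family member, gave 61.8% ± 5.11.

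Pfkp, the platelet-type phosphofructokinase subunit, was highest in enterocyte-like cells at 248 ± 17.7 CPM, with every library above every library of the other epithelial classes. Goblet-like, tuft-like and TA-like cells had 86.3 ± 6.03, 86.1 ± 11.9 and 82.6 ± 11.1 CPM and overlapped. Stem-like cells had 62.2 ± 14.99 CPM, and Paneth-like cells 11.7 ± 4.52 CPM. Pfkl, the liver-type subunit, varied less. It was at 25.1 ± 9.55 CPM in tuft-like and 20.98 ± 6.48 CPM in enteroendocrine-like cells, between 12.5 ± 1.85 and 14.96 ± 1.83 CPM in goblet-like, enterocyte-like, TA-like and stem-like cells, and at 2.26 ± 0.454 CPM in Paneth-like cells. Pfkp gave 93.5% ± 0.817 of phosphofructokinase UMIs in enterocyte-like and 56.4% ± 8.29 in enteroendocrine-like cells.

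Aldoa, Pkm and Ldha, which act after phosphofructokinase, were led by enterocyte-like cells. Aldoa stood at 308 ± 15.7 CPM there, 233 ± 41.2 CPM in tuft-like and 165 ± 26.1 CPM in stem-like cells. Pkm stood at 273 ± 26.7, 196 ± 32.6 and 109 ± 6.696 CPM in the same classes. For both genes tuft-like libraries reached the enterocyte-like range.

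Ldha was the most abundant of the 9 genes and stood at 1371 ± 103 CPM in enterocyte-like cells, above every library of the other epithelial classes. Stem-like and TA-like cells had 749.7 ± 56.8 and 732 ± 70.3 CPM and overlapped. Goblet-like cells, near the top for Hk2 and Slc2a1, had 399.9 ± 14.3 CPM, enteroendocrine-like cells 286 ± 27.9 CPM and Paneth-like cells 79.3 ± 13.96 CPM. Among the 9, genes at the entry and at the end of the pathway were thus not highest in the same classes. This does not extend to all entry genes. Hkdc1, outside the 9, was highest in enterocyte-like cells, at 160 ± 9.19 CPM, against 11.7 ± 3.38 CPM in goblet-like cells. Across 54 sums of 1 class in 1 library, Pearson's r on log2(CPM + 1) was 0.908 for Aldoa and Pkm, 0.821 for Pfkp and Ldha, 0.239 for Hk2 and Pfkfb3 and 0.0364 for Hk1 and Hk2. These sums share libraries and classes and the values are a description.

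**Figure D2:**
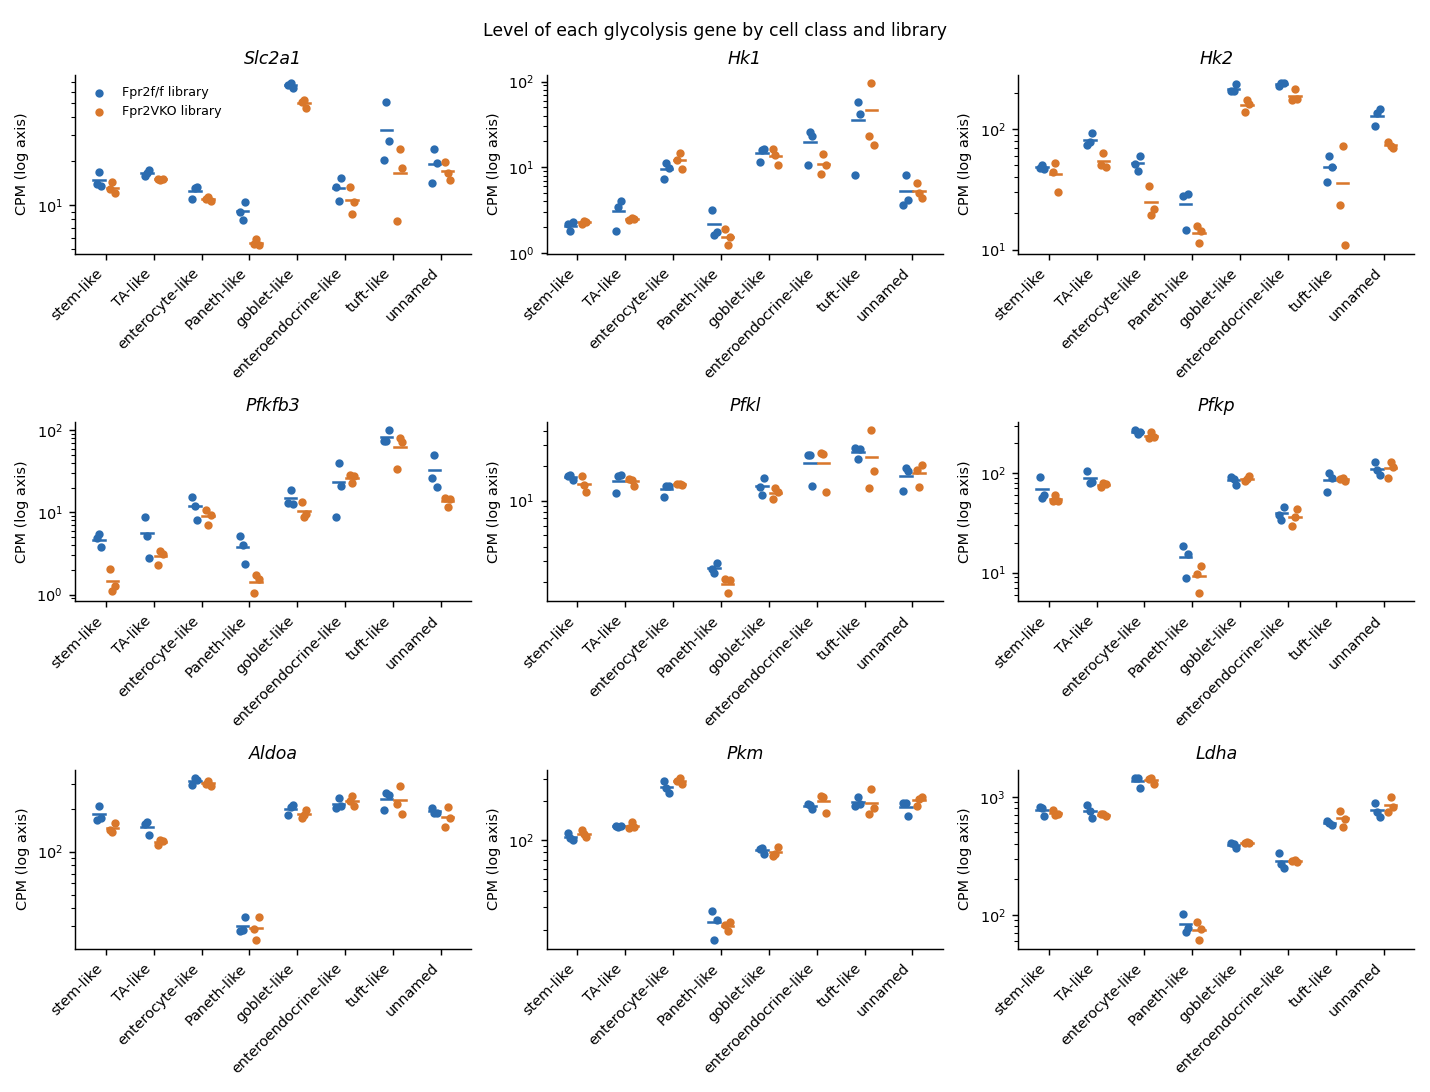
CPM of each of the 9 genes (y axes, log scale) in the epithelial classes (x axes), with 1 point per library, blue for Fpr2f/f and orange for Fpr2VKO, and bars at the means of 3. Averaged over 6 libraries, Paneth-like cells are lowest in every panel, as they are for genes outside the 9 such as Gpi1. Enterocyte-like cells are highest for Pfkp, Aldoa, Pkm and Ldha, and goblet-like cells are highest for Slc2a1.

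Levels also differed with the number of UMIs in a cell, and in opposite directions for different genes. Pfkfb3 stood at 47.7 ± 16.9 CPM in epithelial cells of 1000 to 3000 UMIs and 5.93 ± 1.67 CPM in cells of at least 10000 UMIs, a ratio of 8.04. For Hk2 the levels were 166 ± 45.4 and 50.96 ± 10.1 CPM, a ratio of 3.27. The ratio was 2.05 for Hk1, 1.64 for Slc2a1, 1.53 for Pfkl, 1.42 for Pkm, 0.964 for Pfkp, 0.853 for Aldoa and 0.745 for Ldha. Pooled over the epithelium, Aldoa and Ldha were thus lower in shallow cells, where Hk2 and Pfkfb3 were higher. Within classes, Hk2 was higher in cells under 10000 UMIs than in deeper ones in 6 of 6 libraries of TA-like (ratio 2.42), enterocyte-like (4.34), Paneth-like (3.58), goblet-like (1.9002) and enteroendocrine-like cells (1.52), but in 3 of 6 libraries of stem-like cells, where as few as 10 cells were that shallow. Pfkfb3 was likewise higher in the shallower TA-like (2.56) and enterocyte-like cells (1.87) of 6 of 6 libraries. Its UMIs in stem-like and enteroendocrine-like cells that shallow, 0 to 1 and 0 to 5 a library, were too few to compare. Aldoa and Ldha were lower in shallower enterocyte-like cells of 6 of 6 libraries (0.638 and 0.665), whereas in Paneth-like cells both were higher in the shallower cells of 6 of 6 (2.85 and 4.21).

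**Figure D3:**
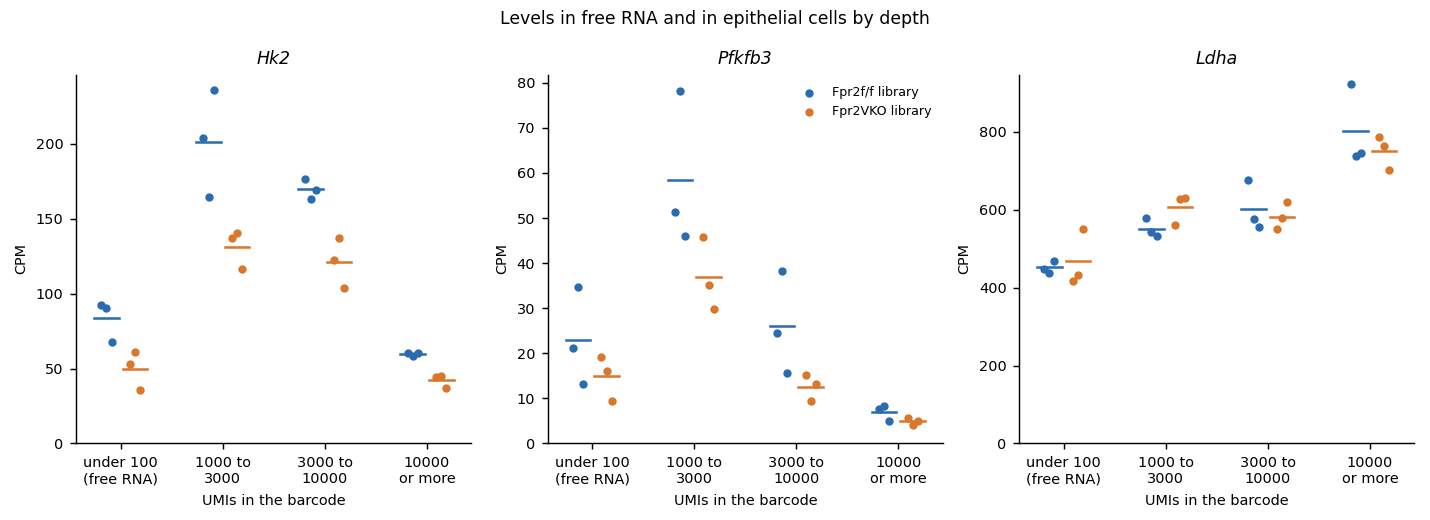
CPM of Hk2, Pfkfb3 and Ldha (y axes, from 0) in free RNA (barcodes under 100 UMIs) and in epithelial cells of 3 depth ranges (x axes), with 1 point per library and bars at the means of 3. Hk2 and Pfkfb3 are highest in cells of 1000 to 3000 UMIs and Ldha in cells of at least 10000 UMIs, and the Fpr2VKO points for Hk2 lie below the Fpr2f/f points throughout.

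Much of the Pfkfb3 signal came from cluster 0, 1766 unnamed cells with a median of 2688 UMIs. Its pooled level was 142 CPM, against 69.5 CPM in the next cluster, the tuft-like one, and 2.11 CPM in the main Paneth-like cluster. By library cluster 0 had 136, 156 and 111 against 96.9, 154 and 143 CPM (Fpr2f/f first), and the groups overlapped. Cluster 0 was 12.8%, 18.8% and 7.01% of epithelial cells for Fpr2f/f replicates 1 to 3 and 8.11%, 4.24% and 3.73% for Fpr2VKO replicates 1 to 3, and it held 14.2 to 49.2% of the epithelial Pfkfb3 UMIs of a library. Pfkfb3 led the genes that define this cluster although it was left out of the clustering. Hk2 had no such cluster: it peaked in the goblet-like cluster 10 at 319 CPM and the enteroendocrine-like cluster 20 at 283 CPM, and stood at 142 CPM in cluster 0.

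**Figure D4:**
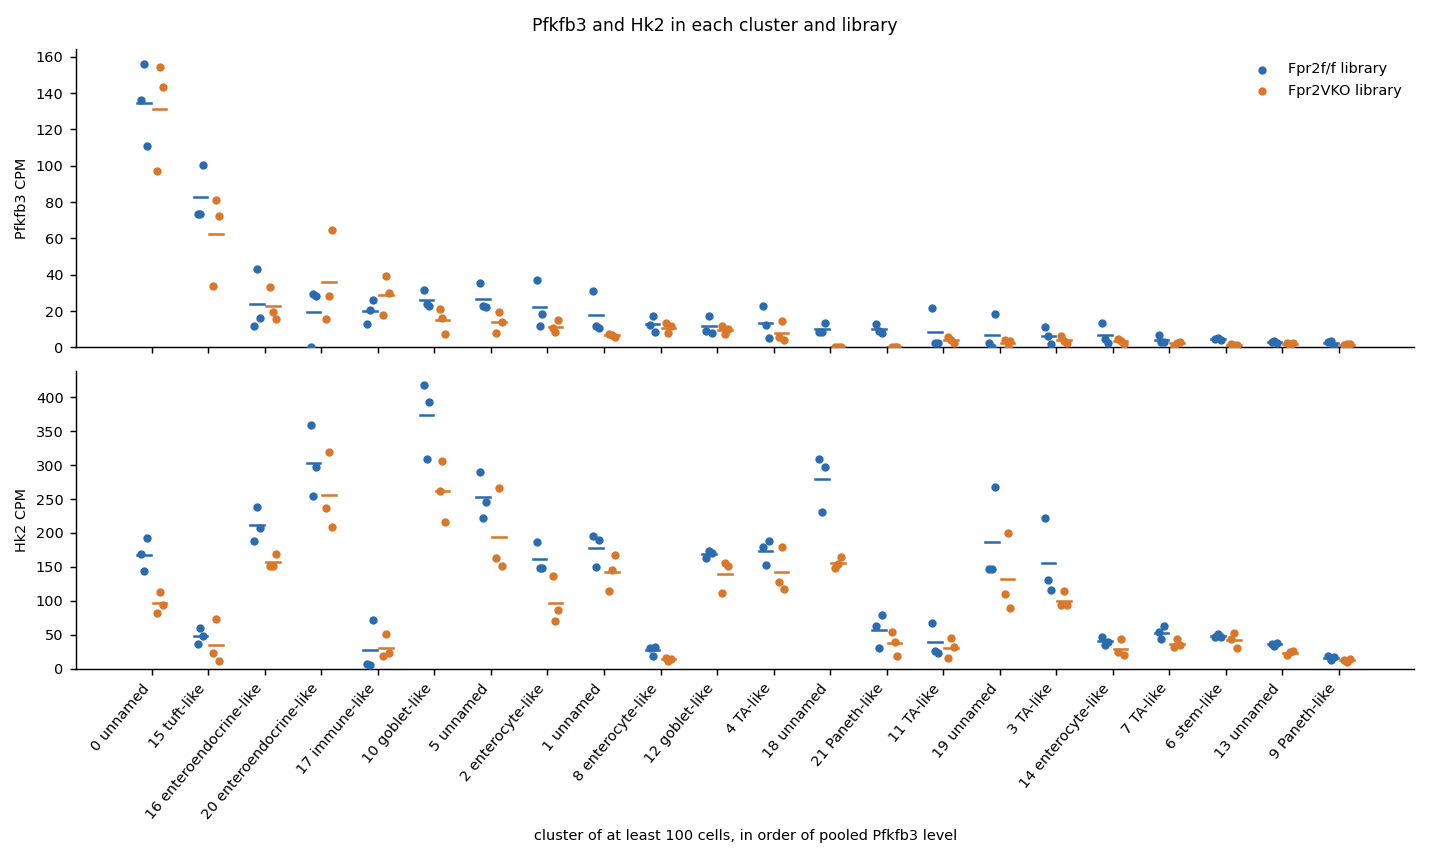
CPM of Pfkfb3 (top) and Hk2 (bottom) in each cluster of at least 100 cells (x axis, ordered by pooled Pfkfb3 level, with the name each cluster took), with 1 point per library and bars at the means of 3. Pfkfb3 peaks in cluster 0 and tuft-like cluster 15, and Hk2 peaks in goblet-like cluster 10 and enteroendocrine-like cluster 20.

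The genes whose levels were most like Hk2 over the same sums, among 6555 genes, were Shb (r = 0.893), Rab11fip1 (0.847), Gcc2 (0.839), Ppp1r10 (0.839) and Plekhg3 (0.838). Those most like Pfkfb3 were Malat1 (r = 0.884), Abhd2 (0.838), Hip1r (0.829), Tcf25 (0.825) and Tuba1a (0.806). Malat1 is a long noncoding RNA that stays in the nucleus. It stood at 10497 ± 914 CPM in cells of 1000 to 3000 UMIs and 2875 ± 561 CPM in cells of at least 10000 UMIs, a ratio of 3.65, beside the Pfkfb3 and Hk2 ratios above. Over all epithelial cells it read 3909, 5277 and 4983 against 4121, 3156 and 3002 CPM (Fpr2f/f first), and the groups overlapped. Its relation to the levels of Hk2 and Pfkfb3 was not tested.

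Between the groups, Hk2 was lower in the Fpr2VKO libraries. Over all epithelial cells it read 86.1, 89.4 and 90.01 CPM in Fpr2f/f and 57.4, 56.6 and 46.4 CPM in Fpr2VKO, a log2 fold change of -0.68 ± 0.12 (SE, n = 3 each). Each SE of a log2 fold change here is the size of that change divided by the square root of the edgeR F statistic. No test is reported for Hk2 because it is treated as chosen for this difference. Its SE, drawn from that same statistic, is a description. The groups did not overlap, which held in the same direction for 10.4% of the genes tested. That each Fpr2VKO library also lay below each Fpr2f/f library within the set of replicates 1 and 2 and within that of replicate 3 follows from this. It is no further evidence. With a term for the sets the log2 fold change was -0.69. Fewer cells with much Hk2 and less Hk2 per cell cannot be told apart in such sums, so the classes follow.

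In enterocyte-like cells the libraries read 51.4, 44.8 and 60.2 against 33.7, 19.5 and 21.8 CPM (Fpr2f/f first here and below), -1.05 ± 0.18 on the log2 scale, where 6.19% of genes lay lower with no overlap. Unnamed cells had 107, 137 and 147 against 78.6, 72.7 and 70.3 CPM (-0.89 ± 0.16, 5.22% of genes), and TA-like cells 74.7, 78.9 and 92.7 against 50.2, 63.3 and 48.7 CPM (-0.61 ± 0.14, 5.28%). Goblet-like cells, where Hk2 was high, had 207, 209 and 238 against 139, 175 and 163 CPM (-0.50 ± 0.12, 4.05%). In these 4 classes no Fpr2VKO library reached a Fpr2f/f library. In Paneth-like cells 1 Fpr2f/f library lay below a Fpr2VKO library, at 28.2, 14.6 and 29.2 against 15.7, 11.4 and 14.4 CPM (-0.66 ± 0.17). Stem-like cells had 47.5, 50.5 and 46.5 against 44.3, 52.4 and 30.2 CPM (-0.17 ± 0.16), and 1 Fpr2VKO library was the highest of all 6. The stem-like value was 0.02 without Fpr2VKO replicate 3 and -0.35 without Fpr2VKO replicate 2. The enteroendocrine-like libraries, which were not among the classes fitted, read 229, 241 and 244 against 175, 216 and 179 CPM. Enterocyte-like and TA-like differences were -0.43 ± 0.25 apart on the log2 scale, given without a test.

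Because Hk2 was higher in shallow cells and Fpr2VKO libraries held more deep cells, it was also compared at matched depth. Cells of 1000 to 3000 UMIs had 204, 165 and 236 against 137, 140.2 and 116 CPM, those of 3000 to 10000 UMIs 176, 163 and 169.1 against 122, 137 and 104 CPM and those of at least 10000 UMIs 60.3, 58.5 and 60.6 against 44.3, 45.1 and 36.97 CPM. In all 3 ranges the groups did not overlap, as for 6.01%, 4.18% and 5.15% of genes. The log2 fold change was -0.49 in the deep cells and -0.56 in cells under 10000 UMIs, both smaller in size than over all cells. When cells were thinned to 3000 UMIs, with 12021 cells kept and 4790 shallower ones left out, 27.4% ± 2.46 of Fpr2f/f and 18.9% ± 2.32 of Fpr2VKO epithelial cells had an Hk2 UMI (n = 3 each). Before thinning the shares were 44.6% ± 2.17 and 41.5% ± 3.199 of all 16811 epithelial cells. Those include the cells left out, so the shares before and after are of different cells. The lowest thinned share over the 6 libraries was 4.16% ± 3.56, in immune-like cells. Free RNA, the barcodes under 100 UMIs, had 92.2, 90.7 and 67.99 against 53.05, 61.1 and 35.8 CPM of Hk2, also without overlap, as for 15.8% of genes, and its part in the difference in cells was not tested.

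The enterocyte-like class was not made up alike in all libraries. Its shallow cluster 2 gave 10.7%, 15.3% and 19.3% of the class's UMIs for Fpr2f/f replicates 1 to 3 and 12.5%, 4.996% and 7.79% for Fpr2VKO replicates 1 to 3. Within cluster 2 Hk2 read 187, 149 and 149 against 136, 69.9 and 86.5 CPM, and within the deeper cluster 8 it read 30.1, 19.4 and 32.5 against 16.5, 11.9 and 14.5 CPM. Neither cluster showed overlap between the groups, whereas cluster 14 did, at 46.9, 34.5 and 39.8 against 24.97, 43.2 and 20.3 CPM. The share of all genes without overlap was not computed within single clusters, here or for the other classes.

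The other classes were uneven too. In goblet-like cells cluster 10, where Hk2 and Slc2a1 are highest, gave 17.5%, 25.8% and 30.8% of UMIs for Fpr2f/f replicates 1 to 3 and 18.3%, 12.98% and 19.1% for Fpr2VKO replicates 1 to 3. Hk2 read 418, 309 and 392 against 263, 306 and 216 CPM within it and 163, 174 and 169.8 against 112, 155 and 151 CPM within the other goblet-like cluster 12, without overlap in either. Slc2a1 overlapped within cluster 10, at 94.6, 75.9 and 93.3 against 111, 71.4 and 47.6 CPM, and did not within cluster 12, at 60.9, 66.6 and 50.1 against 36.9, 49.9 and 46.04 CPM. In TA-like cells the deep cluster 7 gave 77.8%, 50.6% and 48.7% of UMIs for Fpr2f/f replicates and 67.8%, 72.5% and 70.5% for Fpr2VKO replicates. Hk2 overlapped within cluster 7, at 53.9, 43.3 and 62.8 against 31.8, 44.4 and 34.9 CPM, and within clusters 4, 11 and 22, and did not within cluster 3, at 221, 131 and 116 against 93.7, 114 and 93.6 CPM.

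Paneth-like and unnamed cells also differed in make-up. Cluster 21 gave 20.2%, 6.94% and 19.7% of Paneth-like UMIs for Fpr2f/f replicates 1 to 3 and 6.53%, 3.09% and 7.05% for Fpr2VKO replicates 1 to 3, and its pooled Hk2 level was 52.4 CPM, against 13.2 CPM in the main Paneth-like cluster 9. Within cluster 9 the groups overlapped for Hk2, at 19.2, 13.2 and 16.7 against 12.6, 10.53 and 13.8 CPM, and also for Pfkfb3, Slc2a1 and Pfkl, and the part of this make-up in the Paneth-like differences of these genes was not tested. Among unnamed cells, the deep cluster 13 gave 56.1%, 25.4% and 38.8% of UMIs for Fpr2f/f replicates and 39.2%, 66.8% and 56.3% for Fpr2VKO replicates, cluster 0 gave 12.8%, 26.9% and 10.7% and 10.9%, 5.18% and 7.38%, and the shallow cluster 5 gave 6.497%, 22.8% and 15.1% and 14.9%, 7.51% and 10.6%. Hk2 in unnamed cells was 3.198 times as high under 10000 UMIs as above. Within cluster 13 it read 37.04, 33.9 and 38.2 against 20.3, 24.6 and 25.9 CPM and within cluster 0 168.8, 144 and 192 against 82.6, 114 and 93.8 CPM, without overlap, while in cluster 5 the groups overlapped at 290.5, 222 and 246 against 163, 266 and 152 CPM.

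Pfkfb3 was lower in the Fpr2VKO libraries as well, with more spread. It read 13.6, 19.1 and 8.97 against 7.76, 5.59 and 6.62 CPM over all epithelial cells, -1.04 ± 0.28 on the log2 scale, without overlap (as for 10.4% of genes), and -0.67 without Fpr2f/f replicate 2. Outside cluster 0, whose share of cells differed between libraries, it read 10.4, 10.3 and 7.29 against 6.27, 4.74 and 5.72 CPM. Free RNA had 21.1, 34.7 and 13.2 against 19.1, 15.99 and 9.45 CPM of Pfkfb3 with the groups overlapping. It lay above the level over all epithelial cells of the same library in 6 of 6. The same held for its stem-like, TA-like, enterocyte-like and Paneth-like levels, and the part of free RNA in the levels in cells was not tested. Stem-like cells had 4.82, 5.41 and 3.79 against 2.05, 1.095 and 1.27 CPM (-1.61 ± 0.41, 5.71% of genes lower with no overlap), and Paneth-like cells 5.12, 4.06 and 2.32 against 1.05, 1.72 and 1.54 CPM (-1.27 ± 0.40, 5.78%). Unnamed cells had 26.5, 50.7 and 20.6 against 15.1, 11.6 and 14.6 CPM (-1.36 ± 0.36, 5.22%). These levels rest on 5 to 21 Pfkfb3 UMIs a library in stem-like and 5 to 38 in Paneth-like cells. None of these 3 classes showed overlap of the groups, and in TA-like (-0.95 ± 0.35), goblet-like (-0.60 ± 0.25) and enterocyte-like cells (-0.37 ± 0.25) they did. Single libraries moved these values: without Fpr2f/f replicate 2 they were -0.84 in Paneth-like, -0.81 in unnamed and -0.31 in goblet-like cells. Without Fpr2f/f replicate 1 they were -0.53 in TA-like and -0.13 for the enterocyte-like class. That class had -0.23 without Fpr2VKO replicate 2 and -0.63 without Fpr2f/f replicate 3. At matched depth Pfkfb3 read 51.3, 78.1 and 46.03 against 45.7, 35.1 and 29.7 CPM in cells of 1000 to 3000 UMIs and 24.5, 38.3 and 15.6 against 15.1, 9.34 and 13.2 CPM in cells of 3000 to 10000 UMIs, without overlap, as for 6.01% and 4.18% of genes. In cells of at least 10000 UMIs the groups overlapped, at 7.72, 8.25 and 4.901 against 5.58, 4.06 and 5.08 CPM. The log2 fold change in those deep cells was -0.51.

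None of the other 7 genes passed the test between groups. By the edgeR quasi-likelihood test with Benjamini-Hochberg adjustment over all genes tested, 0 of them had an adjusted p under 0.05 in any of 7 comparisons, and DESeq2 also called 0. The share of all genes called was 0.018% in all epithelial cells, 0.106% in goblet-like, 0.0171% in enterocyte-like, 0.312% in stem-like, 0.34% in Paneth-like, 0.0876% in TA-like and 0.0164% in unnamed cells. An unadjusted p under 0.05 was reached by 2 of 6 genes in stem-like cells (7.99% of all genes), 1 of 7 in TA-like (7.86%), 2 of 6 in Paneth-like (9.07%) and 1 of 7 in goblet-like cells (7.68%). It was reached by 0 of 7 in all epithelial (9.01%), enterocyte-like (7.59%) and unnamed cells (9.27%). Hk1 did not pass the filter on low counts in stem-like and Paneth-like cells. The median log2 fold change of the tested genes was -0.05 in all epithelial cells, beside -0.00403 over all genes. In the classes it was -0.26 in Paneth-like, -0.17 in goblet-like, -0.16 in TA-like, -0.16 in stem-like, -0.07 in unnamed and 0.03 in enterocyte-like cells, where the medians over all genes ran from -0.00807 to 0.00396.

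Slc2a1 had its smallest unadjusted p in goblet-like cells, where it is most abundant. It read 66.8, 68.98 and 63.4 against 50.5, 52.7 and 46.3 CPM there, -0.46 ± 0.14 on the log2 scale (edgeR adjusted p = 0.3003). Paneth-like cells read 8.96, 7.91 and 10.46 against 5.43, 5.88 and 5.3005 CPM (-0.65 ± 0.24, edgeR adjusted p = 0.2996). The Fpr2VKO libraries lay below the Fpr2f/f libraries in both classes, as for 4.05% of genes in goblet-like and 5.78% in Paneth-like cells. Over all epithelial cells it read 17.7, 21.3 and 18.8 against 16.4, 15.8 and 13.9 CPM (-0.29 ± 0.14, edgeR adjusted p = 0.569), and -0.16 without Fpr2f/f replicate 2. There Slc2a1 and Aldoa were 2 of the 7 tested genes that lay lower without overlap, beside 10.4% of all genes.

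Aldoa read 157, 161 and 132 against 111, 122 and 119 CPM in TA-like cells (-0.37 ± 0.13, edgeR adjusted p = 0.5005) and 167, 210.3 and 173 against 142, 138 and 159 CPM in stem-like cells (-0.33 ± 0.12, edgeR adjusted p = 0.403), without overlap in either. Of all genes, 5.28% lay lower without overlap in TA-like and 5.71% in stem-like cells. The stem-like value was -0.21 without Fpr2f/f replicate 2 and -0.06899 after thinning to 3000 UMIs, where the TA-like value was -0.22. Enterocyte-like cells, where Aldoa is highest, overlapped at 293, 331 and 317 against 301, 315 and 291 CPM (-0.04 ± 0.12). The enterocyte-like difference minus the TA-like difference, tested as an interaction, was 0.34 ± 0.09 for Aldoa (edgeR adjusted p = 0.229), and 0 of the 7 genes passed this test, as against 0.0694% of all genes. At an unadjusted p under 0.05 it counted 4 of the 7, Aldoa, Hk1, Ldha and Pkm, and 6.26% of all genes.

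In all epithelial cells the log2 fold change was 0.01 ± 0.12 for Ldha, 0.08 ± 0.11 for Pkm, -0.15 ± 0.12 for Pfkp, -0.05 ± 0.12 for Pfkl and -0.02 ± 0.22 for Hk1, with a smallest edgeR adjusted p of 0.747. Ldha read 863, 688 and 699 against 748, 741 and 692 CPM and Pkm 161, 139 and 139 against 151, 153 and 143 CPM, and both overlapped in each of the 7 comparisons. Pfkp had an unadjusted p under 0.05 in stem-like cells, at 91.8, 56.4 and 60.8 against 51.98, 60.05 and 52.001 CPM (-0.35 ± 0.16, edgeR adjusted p = 0.604), and in Paneth-like cells, at 18.6, 8.88 and 15.3 against 9.62, 6.25 and 11.6 CPM (-0.48 ± 0.21, edgeR adjusted p = 0.476), and overlapped in both. In TA-like cells Pfkp read 105, 79.8 and 81.2 against 73.1, 78.7 and 78.2 CPM (-0.22 ± 0.13, edgeR adjusted p = 0.7498) and Slc2a1 15.96, 16.6 and 17.3 against 15.1, 14.9 and 15.02 CPM (-0.16 ± 0.15, edgeR adjusted p = 0.846), so that with Aldoa 3 of the 7 tested genes lay lower there without overlap, against 5.28% of genes. Pfkl was higher in every Fpr2VKO library of enterocyte-like cells, at 10.7, 13.5 and 13.4 against 13.8, 13.96 and 13.6 CPM (0.14 ± 0.16, edgeR adjusted p = 0.905), as were 5.54% of genes, and lower in every Fpr2VKO library of Paneth-like cells, at 2.56, 2.35 and 2.91 against 2.09, 1.59 and 2.05 CPM (-0.44 ± 0.38, edgeR adjusted p = 0.78996), as were 5.78% of genes. A miss of the threshold does not show that the groups were alike, since with 3 libraries a group the SE of the 7 genes in all epithelial cells ranged from 0.11 to 0.22 on the log2 scale.

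**Figure D5:**
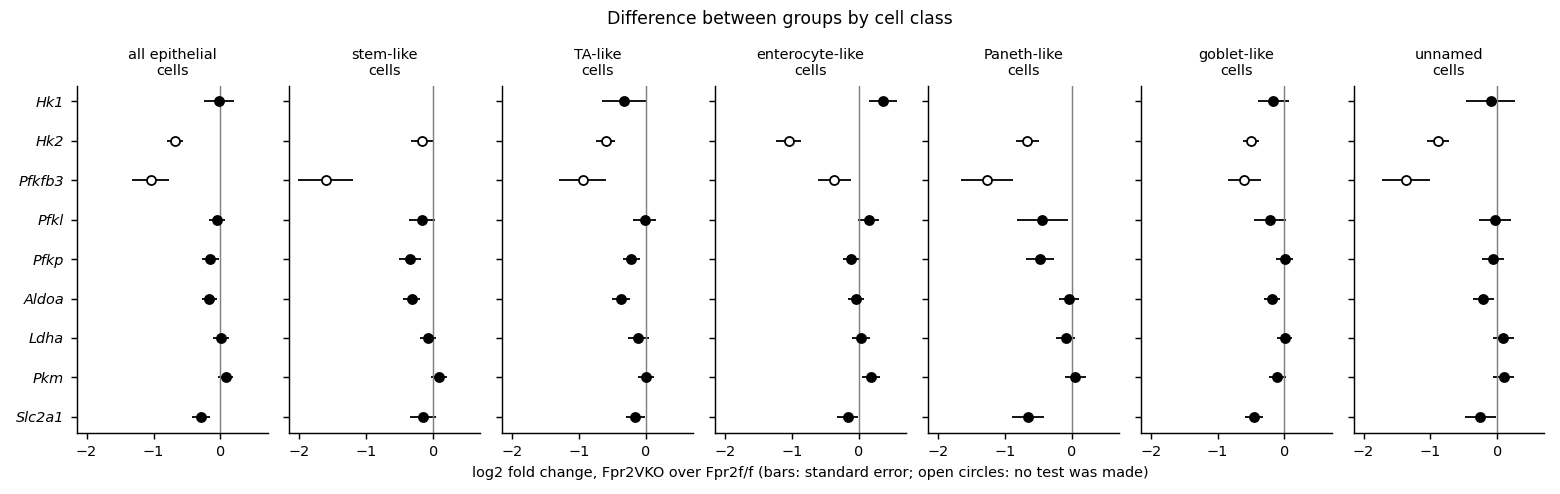
Log2 fold change of each gene, Fpr2VKO over Fpr2f/f (x axes), in all epithelial cells and 6 classes. Bars are the SE drawn from the edgeR F statistic. Open circles mark Hk2 and Pfkfb3, for which no test is reported, and Hk1 is missing where it did not pass the filter. Hk2 and Pfkfb3 lie left of 0 in all 7 panels and Ldha stays near 0.

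Of 51 other genes of glycolysis, its branches and its regulators, in 10 lists, none was called by edgeR in any comparison. In all epithelial cells 48 were tested, 25 had negative and 23 positive log2 fold changes, and 8 had an unadjusted p under 0.05, as had 9.01% of all genes. Their median was -0.01. The 6 genes of fructose use and gluconeogenesis all had positive values (median 0.32, smallest edgeR adjusted p = 0.478), as had all 6 in enterocyte-like cells, but in Paneth-like cells 3 of 4 tested and in unnamed cells 3 of 5 had negative values (medians -0.14 and -0.05). Slc2a2, in the list of hexose transporters, read 2.99, 3.29 and 3.09 against 6.43, 11.8 and 6.07 CPM (1.43 ± 0.28, edgeR adjusted p = 0.198). Of 8 hypoxia response genes 5 had negative values there (median -0.15). In unnamed cells, 6 of the 8 had negative values (median -0.58), among them the vascular growth factor Vegfa at 35.8, 42.2 and 31.2 against 19.4, 18.3 and 20.8 CPM (-0.99 ± 0.18, edgeR adjusted p = 0.147). The list leaned the other way in goblet-like cells, with 4 of 6 tested genes positive (median 0.19), and in stem-like cells, with 3 of 5 (median 0.07). In Paneth-like cells 5 of 6 were negative (median -0.44), in TA-like cells 5 of 7 (median -0.06) and in enterocyte-like cells 4 of 8 (median -0.06).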

How the data were processed

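Cells sorted from ileal crypts were sequenced in 6 libraries, 3 of Fpr2f/f and 3 of Fpr2VKO mice, on the MobiNova-100 platform. The authors aligned reads to mm10 with MobiVision and deposited raw UMI counts, unfiltered matrices of 32285 genes by 2359296 barcodes. Their submission notes also name Seurat 4.0.0, whose output was not used here. Counts in mm10 are those of GRCm38.

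Barcodes with at least 1000 UMIs, 500 genes and at most 20% mitochondrial UMIs were kept. The 2000 most variable genes, without the glycolysis and hypoxia lists, gave 30 principal components, which were aligned across libraries by mutual nearest neighbours and clustered with 20 neighbours (leidenalg 0.10.2, resolution 1, Python 3.11.15). Clusters were named from fixed markers. No doublets were removed except in an alternative, which removed 428 barcodes. Names rebuilt this way may differ from the study's. UMIs were summed per library and class, and groups were compared with the edgeR 4.0.16 quasi-likelihood test (TMM, filterByExpr, R 4.3.3) without a block, threshold 0.05 after Benjamini-Hochberg adjustment, after the script was tested on simulated data. Intervals and floors cover counting error only. DESeq2 1.42.0, RLE size factors, no filter, a replicate block, a term for the sets of libraries sharing barcodes, leaving out an unnamed cluster led by immunoglobulin genes, limits of 40% mitochondrial UMIs and of 2000 UMIs, no alignment, depth ranges, thinning and leaving out each library were alternatives. Of these, thinning, the term for sets, the left-out cluster and the depth ranges outside all epithelial and enterocyte-like cells were chosen after seeing the data.

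The 9 genes, the lists and the tests were chosen with earlier results of these data known, and Hk2 and Pfkfb3 were therefore not tested. Genes named in the text are the 9 members, list genes that were called (there were none), isozyme partners of the members, and the 5 genes most correlated with Hk2 or with Pfkfb3 among genes with a mean of at least 20 CPM over the sums. Vegfa and the other genes outside this rule were named after their values were seen. Results for some list genes are not reported here.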

Additional observations from a re-analysis of the deposited data

Results flagged for a closer look

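Pfkl, the liver-type phosphofructokinase subunit, lay in opposite directions in 2 classes, with every Fpr2VKO library on the same side of every Fpr2f/f library in each. Its mean was 2.61 CPM in Fpr2f/f and 1.91 CPM in Fpr2VKO Paneth-like cells, and 12.5 and 13.8 CPM in enterocyte-like cells. Of all genes, 5.78% were lower without overlap in Paneth-like and 5.54% were higher without overlap in enterocyte-like cells. The difference between the classes was not tested, and neither class passed the edgeR test for Pfkl (adjusted p = 0.78996 and 0.905).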

How the results depend on the processing

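No tested member was called in any comparison or in the interaction under any of the alternatives, DESeq2, depth ranges and left-out libraries included. The log2 fold change of Hk2 was below 0 in 124 of 126 values over the comparisons and alternatives. The exceptions were stem-like cells thinned to 3000 UMIs (0.15) and without Fpr2VKO replicate 3 (0.02). That of Pfkfb3 was below 0 in all 122. These values re-use the same libraries and overlapping cells, and both genes are treated as selected on this difference. The counts are thus a description and not a replication. In all epithelial cells the ranges of Hk2 and Pfkfb3 were -0.77 to -0.49 and -1.28 to -0.51. In enterocyte-like cells the Hk2 range was -1.32 to -0.85, and in goblet-like cells the Slc2a1 range was -0.52 to -0.33. The minimum of 2000 UMIs and the limit of 40% mitochondrial UMIs had the cells clustered and named anew, so their classes hold other cells than the reported ones. Stem-like cells numbered 948 in the reported fits and 2155 with the minimum, 1277 of them in a cluster with no stem marker among its leading 10 genes. With the limit they numbered 3299, 3002 of them in such a cluster, and Paneth-like cells numbered 7264, 6634 of them in a cluster with a median of 1789 UMIs, against 1004. Values that moved by over 1.5 times were -0.58 for Hk2 in stem-like, -0.36 for Hk2 in Paneth-like, -0.56 for Pfkfb3 in enterocyte-like and -0.23 for Slc2a1 in Paneth-like cells with the minimum of 2000 UMIs. They were -0.59 for Hk2 in stem-like, -0.97 for Pfkfb3 in stem-like, -0.72 for Pfkfb3 in Paneth-like and -0.24 for Aldoa in TA-like cells with the limit of 40% mitochondrial UMIs. They were -0.51 for Pfkfb3 in all epithelial, -0.32 for Hk2 in goblet-like, -0.13 for Pfkfb3 in enterocyte-like and -0.39 for Pfkfb3 in goblet-like cells from only cells of at least 10000 UMIs. They were -0.27 for Aldoa in all epithelial, -0.51 for Hk2 in unnamed, -0.99 for Pfkfb3 in enterocyte-like, -1.02 for Pfkfb3 in goblet-like and -0.79 for Pfkfb3 in unnamed cells from only cells under 10000 UMIs. They were 0.15 for Hk2 in stem-like, -0.57 for Pfkfb3 in enterocyte-like, -0.22 for Aldoa in TA-like and -0.06899 for Aldoa in stem-like cells after thinning. The number of all genes called moved more: it was 2 in unnamed, 11 in goblet-like, 32 in Paneth-like, 2 in enterocyte-like, 11 in TA-like, 34 in stem-like and 3 in all epithelial cells in the reported fits. It became 61 in unnamed, 21 in goblet-like, 8 in Paneth-like, 31 in enterocyte-like, 30 in TA-like and 111 in all epithelial cells with DESeq2. It became 359 in unnamed, 43 in goblet-like, 78 in Paneth-like, 160 in enterocyte-like, 147 in TA-like, 124 in stem-like and 144 in all epithelial cells with no filter on low counts. It became 1 in unnamed, 21 in enterocyte-like, 23 in TA-like, 52 in stem-like and 1 in all epithelial cells with a term for the 2 sets of libraries. It became 1 in unnamed, 1 in goblet-like, 2 in Paneth-like, 1 in enterocyte-like, 1 in TA-like, 7 in stem-like and 1 in all epithelial cells after thinning. It became 19 in goblet-like, 5 in Paneth-like and 146 in stem-like cells with the limit of 40% mitochondrial UMIs. It became 1 in unnamed, 4 in goblet-like, 1 in Paneth-like, 6 in TA-like and 18 in stem-like cells with the minimum of 2000 UMIs. It became 26 in goblet-like and 6 in Paneth-like cells without alignment. It became 5 in unnamed, 4 in goblet-like and 10 in Paneth-like cells from only cells of at least 10000 UMIs. It became 7 in goblet-like, 3 in Paneth-like and 1 in TA-like cells from only cells under 10000 UMIs. It became 1 in unnamed cells without doublets. It became 1 in unnamed and 7 in all epithelial cells without the cluster led by immunoglobulin genes. With each library left out in turn it ranged from 1 to 220 in unnamed, 4 to 40 in goblet-like, 11 to 65 in Paneth-like, 1 to 14 in enterocyte-like, 0 to 153 in TA-like, 12 to 47 in stem-like and 1 to 79 in all epithelial cells, and the cause was not tested. Values near 0 in all epithelial cells changed sign: Hk1 was 0.00613 with DESeq2, 0.00665 with the replicate block, 0.0637 from only cells of at least 10000 UMIs and 0.0558 after thinning. Pfkl was 0.00464 from only cells of at least 10000 UMIs. Ldha was -0.00891 with the limit of 40% mitochondrial UMIs, -0.00552 with the minimum of 2000 UMIs, -0.0731 from only cells of at least 10000 UMIs and -0.0161 from only cells under 10000 UMIs. Pkm was -0.13 from only cells under 10000 UMIs and -0.0507 after thinning. With libraries left out the values ran from -0.22 to 0.18 for Hk1, -0.11 to 0.02497 for Pfkl, -0.0485 to 0.08696 for Ldha, -0.24 to -0.0676 for Pfkp and 0.0145 to 0.12 for Pkm.

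The replicate numbers did not pair all libraries: deviations of same-numbered libraries had Pearson's r of 0.0684, 0.109 and 0.517, and not every library correlated best with its own number. Replicate 3 of the 2 groups did correlate best with each other. Pairs of replicate 3 of 1 group with replicate 1 or 2 of the other ran from -0.300 to -0.158. This is the same split of libraries as in the shared barcodes, and the labels do not say what it stands for. With the replicate block, 11 genes were called in unnamed, 86 in Paneth-like, 98 in enterocyte-like, 58 in TA-like, 92 in stem-like and 48 in all epithelial cells, the log2 fold change of Hk2 in all epithelial cells was -0.69 and that of Pfkfb3 -0.97. Stem-like cells without alignment and under 10000 UMIs were not run, since a library had under 20 such cells. Leaving out the cluster led by immunoglobulin genes was added after seeing the data. Depth limits Hk1, which had 1.23 to 4.09 CPM in stem-like, TA-like and Paneth-like libraries, Pfkfb3 with 5 to 21 UMIs in stem-like and 5 to 38 in Paneth-like libraries, and Pfkl with 4 to 22 UMIs in Paneth-like libraries. Tuft-like libraries held 2 to 25 UMIs of Hk1, 3 to 26 of Hk2, 10 to 32 of Pfkfb3, 5 to 10 of Pfkl and 3 to 22 of Slc2a1.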
